A study of Arabidopsis thaliana with 8 samples.

Results

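The ERF and DREB transcription factors were examined in floral buds of Arabidopsis thaliana in which the regulator RABBIT EARS (RBE) had been activated. The 51 genes were a fixed list of loci. It holds a part of the ERF, CBF, DREB, RAP2 and CRF genes, the HRE genes, and the primordium genes PUCHI, DRN, DRNL and LEP. Another 95 loci annotated with an AP2/ERF domain lie outside the list and are summarized at the end. Subgroup counts and medians below cover listed genes only. All 51 were among the 28775 genes listed, and 49 had reads under both treatments, as did 24945 genes in all. ESE1 (AT3G23220) had 7 reads after dexamethasone and 0 after mock, and was not called because it lacks reads in mock. Set against an assumed 3 reads in mock it would be 2.72-fold higher. That value leaves out the counting error of the 7 reads and is not a lower bound. DDF2 (AT1G63030) had 1 read, after mock.

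Plants of the strain L er carried the transgene 35S:GR-RBE in both groups. A constitutive viral promoter drives RBE joined to the glucocorticoid receptor domain, so that the protein is made in all tissues and enters the nucleus when the steroid is given. Buds of mixed stages received 10 µM dexamethasone with 0.1% ethanol and 0.015% Silwet (DEX) or the same ethanol and Silwet alone (mock) for 4 h. The labels give 4 libraries per treatment, 2 technical ones for each of 2 biological replicates, and the table holds 1 pooled value per treatment. With no steroid-treated buds lacking the transgene among these libraries, effects of RBE and of the steroid itself cannot be told apart.

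AP2/ERF proteins bind DNA through a single AP2 domain in the ERF and DREB families. Group IX ERFs activate genes that carry a GCC box and respond to ethylene, jasmonate, elicitors and wounding. Group VIII ERFs with an EAR motif repress such genes. CBF and DREB proteins bind the dehydration-responsive element of cold and drought genes, group VII ERFs act in low oxygen, cytokinin response factors (CRFs) act beside the cytokinin signalling chain, and PUCHI, DRN, DRNL and LEP act in young organ primordia.

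Reads on genes came to about 102142997 in the DEX pool and 119056279 in the mock pool, both recovered from the deposited log-likelihood score. Fold changes are log2 ratios of DEX over mock from the authors' deposited table. Each ± is the standard error from read counting over the pools, and covers neither PCR copies nor the spread between replicates, which pooled values cannot show. A gene with reads in both pools was called higher or lower where the authors' deposited posterior for the opposite direction was under 0.05. RBE itself had 21774 reads in DEX and 28896 in mock, with transgene and native gene counted together. The floral genes AP1, AP3, PI, AG and SEP3 had 17960 to 47543 reads each, and 4 root genes had 0 to 87. All 5 floral genes were called lower in DEX, beside 20.8% of all genes, at log2 ratios from -0.43 to -0.03. The part of this in the results below was not tested. Counting error is a small part of the scatter of abundant genes: for those with 3000 to 10000 reads its median was 0.0386, while the SD of their log2 ratios was 0.226.

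Of the 49 measured genes, 25 were called higher in DEX, 8 lower and 16 in neither direction, and the median log2 ratio was 0.24. Among all genes, 36.4% were called higher and 20.8% lower, or 57.2% in either direction, with a median of 0.05. At 1.5-fold or more, 11 genes of the family were called higher, beside 4.45% of all genes, and 5 lower, beside 2.91%. At 2-fold or more these were 6 and 2, beside 1.74% and 0.974%. The 11 were TDR1, HRE2, ERF105, ERF5, ERF11, DEAR1, ERF13, ERF1, ERF6, CRF3 and ERF15. Closest to the 1.5-fold limit were ERF15 and CRF3 inside it, at log2 ratios of 0.59 and 0.61, and ERF104 outside it, at 0.54. The 5 were ERF9, TINY, ERF12, RAP2.6 and ORA59. For scale, the central 90% of the 19988 genes with 200 reads or more lay between -0.39 and 0.46, and 35 of the 49 genes reached that depth.

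**Figure D1:**
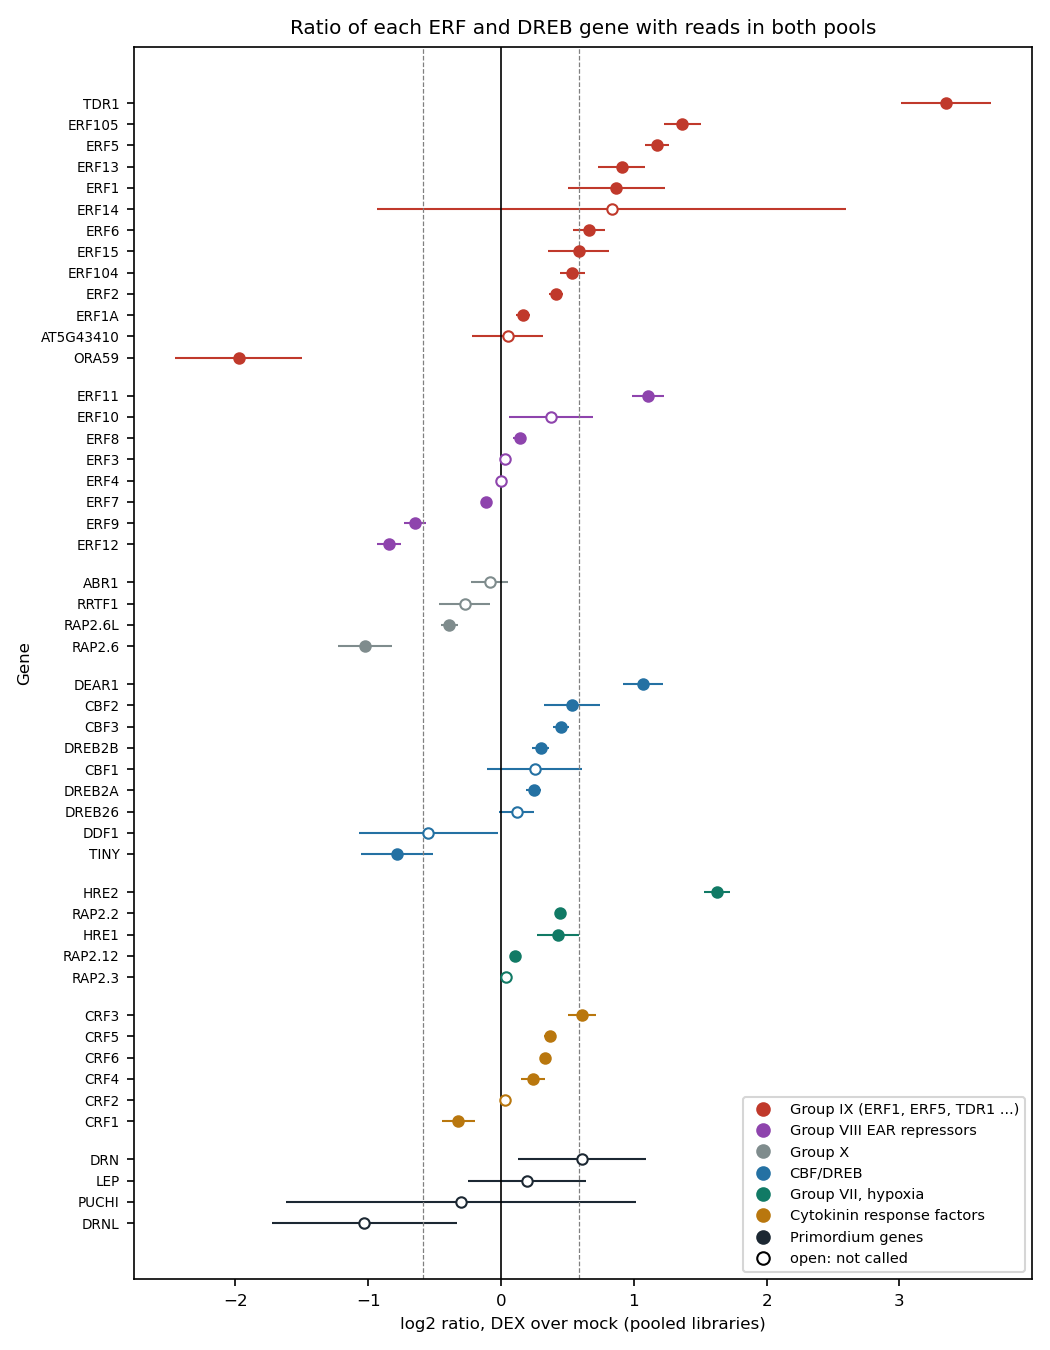
Log2 ratio of DEX over mock for the 49 genes with reads in both pools, by subgroup. Points are pooled values, bars the standard error from read counting, open points genes not called, and dashed lines a 1.5-fold difference; group IX lies mostly to the right, with ORA59 far to the left at -1.98.

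Levels per length spanned a wide range, as reads scaled by exon length and pool size (RPKM). RAP2.12 was the most abundant transcript of the family, at 147 RPKM in mock and 158 in DEX. RAP2.2 followed at 112 and 153 RPKM. ERF3, RAP2.3, CRF6 and ERF4 lay close together in mock, at 33.4, 31.5, 29.7 and 29.4 RPKM. The median over the 49 genes was 1.57 RPKM in mock, against 8.08 for all measured genes. The lowest levels were those of ERF14 at 0.011 and PUCHI at 0.017 RPKM in mock, which rest on 1 and 3 reads. TDR1, with the largest ratio, stood at 0.214 RPKM in mock and 2.25 in DEX, while HRE2, with the next largest, stood at 2.98 and 9.21.

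**Figure D2:**
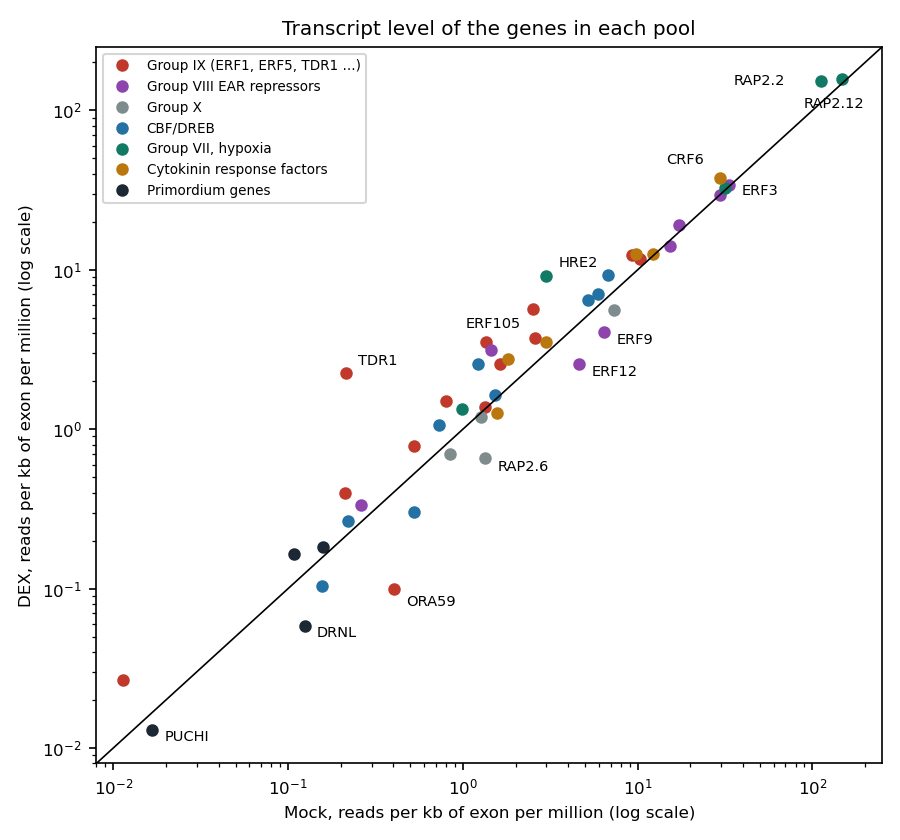
Level of each of the 49 genes in the mock pool (x) and the DEX pool (y), in RPKM on log axes; the line marks equal levels. TDR1 lies farthest above the line, at 0.214 in mock and 2.25 in DEX, and ORA59 farthest below it, at 0.402 and 0.0992.

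The listed group IX activators were mostly higher in DEX. Of 13 measured, 10 were called higher and 1 was called lower, beside 36.4% and 20.8% of all genes. The median log2 ratio was 0.66. TDR1 (AT3G23230, also ERF98), which is linked to salt tolerance and ascorbate synthesis, had 181 reads in DEX against 20 in mock, which is a log2 ratio of 3.35 ± 0.34. With 201 reads in all, it passed the minimum of 200 reads only narrowly and through its 181 DEX reads. Among the 19988 genes that passed, it ranked 1 by log2 ratio. It is a gene without introns on chromosome 3, from 8289379 to 8290164 on the minus strand of TAIR10.1.

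ERF5 and ERF6, activators induced by chitin and osmotic stress, had log2 ratios of 1.17 ± 0.09 and 0.66 ± 0.12. ERF5 had 756 reads in DEX and 391 in mock, and ERF6 had 352 and 259. ERF105, a cold-responsive and elicitor-responsive relative, was at 1.37 ± 0.14, with 345 and 156 reads. ERF104, a substrate of the immune kinase MPK6, was at 0.54 ± 0.09. These listed relatives were all called higher, by 1.45-fold for ERF104 and 2.58-fold for ERF105.

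ERF13 had 171 reads in DEX against 106 in mock, at 0.91 ± 0.18. ERF1, a direct target of the ethylene factor EIN3, was at 0.87 ± 0.37 and rests on 40 and 25 reads. ERF15 was at 0.59 ± 0.23, with 91 and 71 reads. ERF2 and ERF1A, GCC-box activators with far more reads, were higher by smaller amounts, at 0.41 ± 0.05 and 0.17 ± 0.05. ERF14, with 3 reads in all, and AT5G43410, with 56 in DEX and 63 in mock, were not called.

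ORA59 (AT1G06160), which joins jasmonate and ethylene signals to activate defensin genes, went the other way. It had 11 reads in DEX against 52 in mock, which is a log2 ratio of -1.98 ± 0.48, or 3.93-fold lower. Of the listed group IX genes it was the only one called lower, and it had the lowest ratio of the 49 genes. ERF1, which was called higher, had a like number of reads in all, 65 against 63 for ORA59.

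The EAR repressors of group VIII were divided. Of 8 measured, 2 were called higher and 3 were called lower, beside 36.4% and 20.8% of all genes. The median log2 ratio was 0.01. ERF11 (AT1G28370), a repressor of ethylene synthesis genes, had 388 reads in DEX and 209 in mock, at 1.11 ± 0.12. ERF12 (AT1G28360), which acts with the corepressor TOPLESS in floral meristems, had 353 and 737 reads, at -0.84 ± 0.09. ERF9, a repressor of defence genes, was at -0.65 ± 0.08, with 478 and 873 reads. The abundant members differed little: ERF8 was called higher at 0.14 ± 0.05 and ERF7, which dampens abscisic acid responses, lower at -0.11 ± 0.03. ERF3 at 0.03 ± 0.03, ERF4 at -0.003 ± 0.034 and ERF10 at 0.38 ± 0.32 were not called.

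Of the 4 listed group X genes, none was called higher and 2 were called lower, beside 36.4% and 20.8% of all genes. RAP2.6 (AT1G43160), induced by jasmonate, abscisic acid and wounding, had 70 reads in DEX against 167 in mock, which is a log2 ratio of -1.02 ± 0.21. RAP2.6L, which acts in shoot regeneration and in the joining of cut tissue, was at -0.39 ± 0.06, with 856 and 1305 reads. ABR1, a repressor of abscisic acid responses, was at -0.09 ± 0.14, and RRTF1 (also ERF109), an early gene of wounding and reactive oxygen, at -0.27 ± 0.19, and neither was called. All 4 log2 ratios of these listed genes were below 0, with a median of -0.33.

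**Figure D3:**
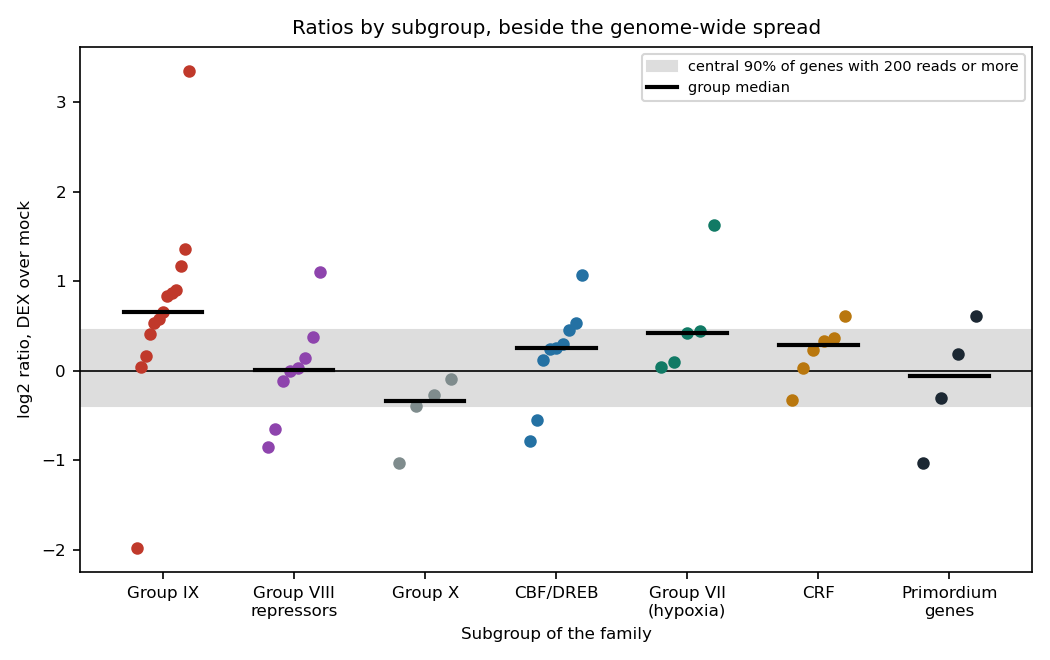
Log2 ratio of DEX over mock by subgroup; each point is 1 gene and each black bar the subgroup's median. The grey band is the central 90% of the 19988 genes with 200 reads or more, from -0.39 to 0.46; the medians of group IX and group X are 0.66 and -0.33.

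Of 9 listed and measured CBF and DREB genes, 5 were called higher and 1 lower, beside 36.4% and 20.8% of all genes. The median log2 ratio was 0.25. DEAR1 (AT3G50260, also CEJ1), a DREB protein that carries an EAR motif, had 253 reads in DEX and 140 in mock, at 1.07 ± 0.15. CBF3 had 1310 and 1117 reads, at 0.45 ± 0.06, and CBF2 had 107 and 86, at 0.53 ± 0.21. CBF1 was at 0.25 ± 0.36 with 33 and 32 reads and was not called. Among these 3 cold regulators CBF3 was by far the most abundant per length, at 6.74 RPKM in mock against 0.733 for CBF2 and 0.221 for CBF1.

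The drought and heat factors DREB2A and DREB2B were higher by 1.18-fold and 1.23-fold, at log2 ratios of 0.24 ± 0.06 and 0.30 ± 0.06. DREB26 at 0.12 ± 0.13 and DDF1, which promotes gibberellin breakdown under salt, at -0.55 ± 0.52 were not called. TINY (AT5G25810), whose overexpression stunts growth, had 42 reads in DEX against 85 in mock, which is a log2 ratio of -0.78 ± 0.27. It was the only listed CBF or DREB gene called lower. Outside the list, DREB2C, DREB19, DEAR2 and RAP2.9 (also DEAR5) were called higher, at 0.64, 0.25, 0.41 and 1.46. DEAR3, RAP2.10 (also DEAR4) and TINY2 were called lower, at -0.34, -0.27 and -0.42. CBF4, with 3 reads in DEX and 6 in mock, was not called.

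All group VII genes carried a cysteine codon directly after the start codon. That cysteine is the N-degron through which oxygen marks these proteins for breakdown, so the coding starts are shown, read from the RefSeq TAIR10.1 genome. Capitals mark the start codon and the cysteine codon.
RAP2.12: ATGTGTggaggagctataatatccgatttc
RAP2.2: ATGTGTggaggagctataatctccgatttc
RAP2.3: ATGTGTggcggtgctattatttccgattat
HRE1: ATGTGCggaggagctgtaatttccgattac
HRE2: ATGTGTgggggagctatcatttctgatttc
A cysteine codon in this place occurred in 5 of 5 group VII genes, in 1 of the other 44 measured genes and in 0.692% of 24290 coding genes.

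Of these 5 genes, 4 were called higher in DEX and none lower, beside 36.4% and 20.8% of all genes. The median log2 ratio was 0.43. HRE2 (AT2G47520, also ERF71), which is itself induced by low oxygen, had 793 reads in DEX and 299 in mock, at 1.62 ± 0.10 or 3.08-fold. It ranked 17 among the 19988 genes with 200 reads or more. HRE1, its sister, was at 0.43 ± 0.16, with 173 and 150 reads. The 3 constitutively expressed members had far more reads. RAP2.2 had 28549 in DEX and 24507 in mock, at 0.44 ± 0.01, RAP2.12 had 30716 and 33320, at 0.10 ± 0.01, and RAP2.3, at 0.04 ± 0.03, was not called. With the lower depth of the DEX pool taken into account, RAP2.12 was only 1.07-fold higher.

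Of the 6 listed cytokinin response factors, 4 were called higher and 1 was called lower, beside 36.4% and 20.8% of all genes. The median log2 ratio was 0.29. CRF3 (AT5G53290) had 441 reads in DEX and 337 in mock, at 0.61 ± 0.10. CRF5 and CRF6, both induced by cytokinin, were at 0.37 ± 0.05 and 0.33 ± 0.03, and CRF4 at 0.24 ± 0.09. CRF1 was lower, at -0.32 ± 0.12, with 227 and 331 reads. CRF2, a cytokinin-induced gene and target of the auxin factor MP, was at 0.03 ± 0.04 and was not called. CRF6 was the most abundant of the 6 per length, at 29.7 RPKM in mock. Outside the list, CRF7, CRF8, CRF9 and CRF11 were not called, at log2 ratios of -0.02, -0.02, 0.13 and 0.02. CRF10 and CRF12 had 0 reads.

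The 4 primordium genes were barely detected, and none was called. DRNL (AT1G24590), which marks founder cells of floral organs, had 6 reads in DEX and 15 in mock, at -1.03 ± 0.70, with a posterior of 0.0565 that DEX was higher in the authors' deposited table. DRN (AT1G12980), which acts in embryo and shoot patterning, had 21 and 16 reads, at 0.61 ± 0.48. LEP had 21 in each pool and PUCHI, a regulator of floral meristem identity, 2 and 3. A 2-fold difference in these genes was not reliably detectable at this depth. The ratios of DRN and DRNL lay on opposite sides of 0, with a counting error of 0.85 on their difference.

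Some family members that lie near each other in the genome differed in size of change. TDR1 and ERF1, 5452 bases apart, differed by 2.48 ± 0.50 in log2 ratio. ESE1, nearer to TDR1 on its other side, had 7 reads in DEX and 0 in mock, so it has no ratio. ERF5 and ERF2, 6924 bases apart, differed by 0.76 ± 0.10, and ERF6 and ERF1A, 5041 bases apart, by 0.50 ± 0.13. ERF11 and ERF12, 2668 bases apart, lay in opposite directions and differed by 1.95 ± 0.16. In the first 3 pairs both genes were called higher, by different amounts. These errors cover read counting only, and how often other gene pairs differ as much was not tested.

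In the CBF cluster the counting errors were larger, since CBF1 had only 33 and 32 reads. CBF2 and CBF1 differed by 0.28 ± 0.41, CBF3 and CBF1 by 0.20 ± 0.36, and CBF3 and CBF2 by -0.08 ± 0.22, all below their counting errors. Differences of the size seen in some other pairs could not be told from 0 for CBF1 at this depth. Their exonic sequences share 82.7% to 84.1% identity over 821 to 910 aligned bases. The sister genes HRE2 and HRE1, on different chromosomes, were at 1.62 and 0.43, with a counting error of 0.19 on their difference.

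**Figure D4:**
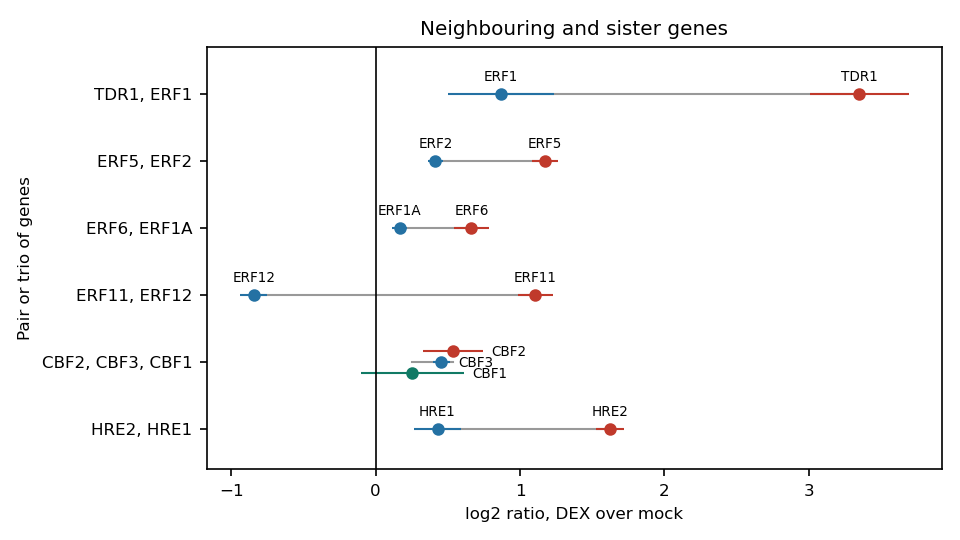
Log2 ratio of DEX over mock for neighbouring genes and for the sister genes HRE2 and HRE1, with bars for the standard error from read counting. ERF11 and ERF12 lie on opposite sides of 0, at 1.11 and -0.84, while the bars of the 3 CBF genes overlap.

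Promoters are shown for the highest and lowest ratio, TDR1 and ORA59, and for the neighbours with opposite direction, ERF11 and ERF12. Each is the 250 bases before the RefSeq start in TAIR10.1: chr3:8290165-8290414 on the minus strand for TDR1, chr1:1882657-1882906 on the plus strand for ORA59, chr1:9956981-9957230 on the minus strand for ERF11 and chr1:9951512-9951761 on the plus strand for ERF12. Capitals mark any match, on either strand, to the GCC box (GCCGCC), the core of the dehydration-responsive element (CCGAC), the W box (TTGACC or TTGACT), the rapid stress element (CGCGTT), the CAMTA box (ACGCGT or CGCGTG) or the G box (CACGTG). The rapid stress element and the CAMTA box share letters and may overlap.
TDR1: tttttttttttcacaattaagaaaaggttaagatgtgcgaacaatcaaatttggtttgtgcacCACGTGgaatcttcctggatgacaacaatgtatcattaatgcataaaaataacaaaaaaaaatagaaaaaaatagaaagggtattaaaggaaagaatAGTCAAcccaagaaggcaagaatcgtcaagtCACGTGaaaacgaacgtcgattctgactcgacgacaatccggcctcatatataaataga
ORA59: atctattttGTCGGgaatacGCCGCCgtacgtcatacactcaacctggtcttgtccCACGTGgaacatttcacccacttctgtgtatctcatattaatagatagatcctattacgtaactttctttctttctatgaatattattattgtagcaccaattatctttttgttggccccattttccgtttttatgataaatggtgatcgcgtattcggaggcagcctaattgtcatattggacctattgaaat
ERF11: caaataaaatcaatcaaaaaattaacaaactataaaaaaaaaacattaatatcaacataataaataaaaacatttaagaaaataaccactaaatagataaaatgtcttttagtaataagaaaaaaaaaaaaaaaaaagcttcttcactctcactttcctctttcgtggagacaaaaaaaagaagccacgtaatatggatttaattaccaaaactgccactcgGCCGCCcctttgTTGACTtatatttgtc
ERF12: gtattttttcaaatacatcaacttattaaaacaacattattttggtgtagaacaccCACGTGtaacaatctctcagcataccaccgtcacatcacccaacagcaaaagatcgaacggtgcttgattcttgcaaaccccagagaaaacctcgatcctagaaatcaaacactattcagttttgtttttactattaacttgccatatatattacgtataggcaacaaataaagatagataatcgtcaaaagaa
TDR1 held G boxes and a W box, ORA59 a GCC box, a dehydration core and a G box, ERF11 a GCC box and a W box, and ERF12 a G box.

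Across the 49 genes, a G box was found in 13 promoters, or 26.5%, against 6.86% of 24289 promoters of coding genes with reads in both pools. It occurred in 2 of the 11 genes that were 1.5-fold or more higher and in 11 of the other 38. A GCC box was found in 5 promoters, those of ERF15, ORA59, ERF11, ABR1 and CRF6, or 10.2% against 1.81%. The W box was found in 11, or 22.4% against 28.4%. These were 4 of the 11 higher genes, TDR1, ERF5, ERF105 and ERF11, and 7 of the other 38. The dehydration core was found in 6, or 12.2% against 12.1%, the rapid stress element in 2, or 4.08% against 2.64%, and the CAMTA box in none, against 3.68%. These letters are matches in a window and no measured binding. Of the 49 genes, 40 had a single exon block, or 81.6% against 18.9% of coding genes. Among them were 10 of the 11 higher genes and 30 of the other 38.

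Genes that act before the ERFs in ethylene signalling had small ratios. Of 12 measured ethylene receptors and signalling components, 8 were called higher and 2 lower, beside 36.4% and 20.8% of all genes. All were within 1.5-fold, at a median log2 ratio of 0.11. Genes with many reads were called at small ratios. EBF1, which marks EIN3 for breakdown, was at 0.12 ± 0.01, EIN3 at 0.10 ± 0.01, and the receptors ERS2 and ETR2 at 0.24 ± 0.03 and 0.25 ± 0.04. Of 10 measured ethylene synthesis genes, 2 were called higher and 2 lower, beside 36.4% and 20.8% of all genes. The synthase gene ACS2 had 1970 reads in DEX and 1171 in mock, at 0.97 ± 0.05, and ACS7, with 29 and 14 reads, was at 1.21 ± 0.47. ACS6, another synthase gene, was at -0.47 ± 0.05.

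Known targets differed by subgroup. All 8 hypoxia genes were called higher, beside 36.4% of all genes. Their log2 ratios ran from 0.42 to 1.45, with a median of 0.61. The fermentation genes PDC1 and ADH1 were at 1.45 ± 0.04 and 1.10 ± 0.02. LBD41 was at 0.54 ± 0.03 and PCO1, an oxidase that acts on the group VII cysteine, at 0.62 ± 0.05. Another gene overlaps ADH1 in the annotation, as also holds for COR15B, PR3, BOP2 and MP below, so reads may be shared.

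Of 9 cold genes of the CBF regulon, 8 were called higher and 1 lower, beside 36.4% and 20.8% of all genes. The median log2 ratio was 0.27. RD29A was at 0.81 ± 0.01, COR15A at 0.55 ± 0.01, COR15B at 0.89 ± 0.02 and COR413-PM1 at 0.41 ± 0.01, while GOLS3, which makes galactinol, was at -0.37 ± 0.23. Defence targets of ORA59 and ERF1 were scarce. The defensin genes PDF1.2A, PDF1.2C and PDF1.3 had 1 read each, in mock, and PDF1.2B had 0. PR4 had 212 reads in DEX and 629 in mock, at -1.34 ± 0.11, and the osmotin gene OSM34 had 32 and 12, at 1.56 ± 0.49. The chitinase gene PR3 was at -0.45 ± 0.30 and was not called.

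Type-A response regulators, which cytokinin induces, were split, with 3 of 8 called higher and 4 lower, beside 36.4% and 20.8% of all genes. ARR4 and ARR5 were at 0.40 ± 0.03 and 0.38 ± 0.08, against -0.69 ± 0.06 for ARR7 and -0.44 ± 0.13 for ARR15. Of 8 genes that act with DRN, DRNL or PUCHI in primordia, 5 were called lower and 1 higher, beside 20.8% and 36.4% of all genes. Their median log2 ratio was -0.29. BOP2 and BOP1, which act with PUCHI in floral meristems, were at -0.60 ± 0.05 and -0.85 ± 0.12, AP1 was at -0.13 ± 0.02, and MP at 0.13 ± 0.01.

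**Figure D5:**
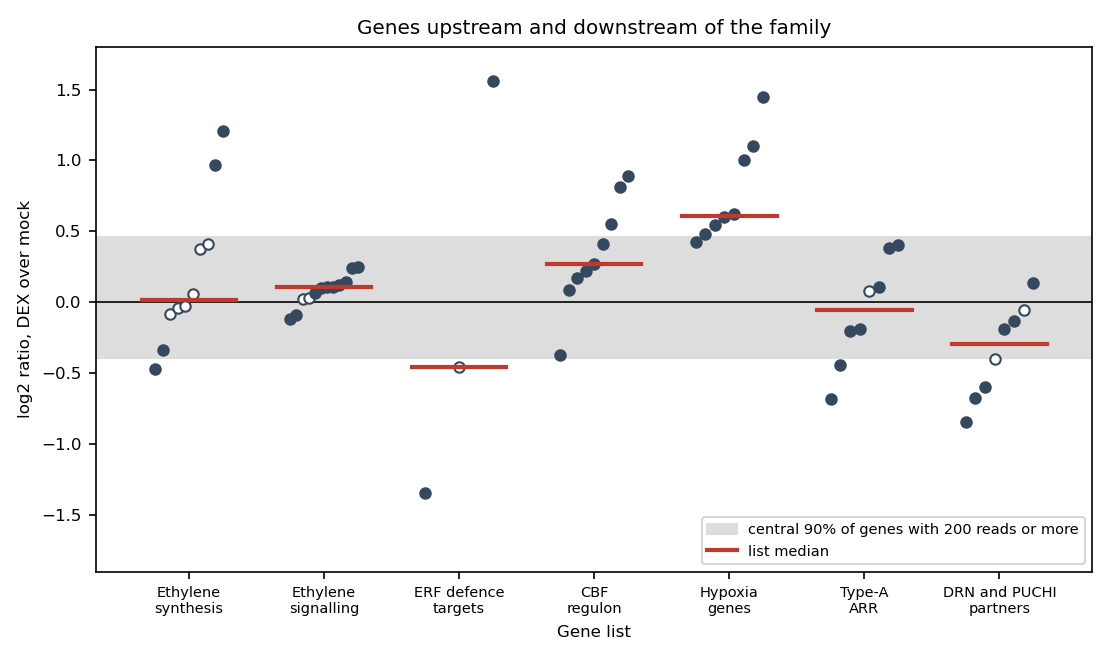
Log2 ratio of DEX over mock for measured genes of 7 lists around the family; filled points were called, open points were not, and red bars are list medians. The grey band is the central 90% of the 19988 genes with 200 reads or more; the 8 hypoxia genes lie between 0.42 and 1.45.

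Some genes share sequence or position with another gene, so their reads are uncertain. ERF105, RRTF1, ABR1, CBF3, DREB2A, DREB2B, HRE1 and CRF4 overlap a gene on the other strand in the RefSeq annotation, and whether counting used strand is not given in the sources used here. HRE1, with 173 and 150 reads, overlaps AT1G72370, which had 73006 and 88789 reads at a log2 ratio of -0.06 ± 0.01. ERF105 overlaps AT5G51180, which had 3752 and 4134 reads at 0.08 ± 0.03. RAP2.12 shares a near-identical stretch with AT1G53887.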

How the data were processed

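Messenger RNA of 8 bud libraries was sequenced. TopHat 1.2.0, HTSeq 0.4.5p6 and TAIR10 are named in the submitters' processing notes, without roles. The authors deposited 1 table in the output format of LOX, with 1 level per gene and treatment as a ratio to the lower treatment, pooled over libraries. In place of a p-value the authors deposited a posterior probability of each direction, and they deposited a log-likelihood score. Whole reads per pool were recovered here from the score, taken as a Poisson log-likelihood of each pool's reads given its total. No source used here states this form, and reads of abundant genes are rounded estimates. Totals of 99.98% of 8295 genes with up to 1000 reads lay within 0.1 of a whole number. The code was tested on counts simulated with this same form, which does not test the form itself.

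The 51 members, their subgroups and the other lists were chosen with earlier results of these data known. The rule for named genes took all members, and up to 4 genes per list with the largest ratio over its counting error. AP2/ERF genes outside the 51 were named after their values were seen. The values of 1 gene that this rule picks are not reported here. With pooled values no test over replicates could be made. Calls used the posterior limit of 0.05 and needed reads in both pools, without a further minimum of reads. Positions, exonic length, overlaps and promoters came from RefSeq TAIR10.1, which matched 28009 loci. Copies were sought with blastn 2.17.0 at 95% identity over 100 bases. Tables were made with pandas 2.3.3 and NumPy 2.4.6 under Python 3.11.15, and figures with Matplotlib 3.10.9.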

Additional observations from a re-analysis of the deposited data

How the results depend on the processing

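No paired analysis was possible because each treatment has 1 pooled value per gene. Leaving out a replicate and blocking on it were not run for that reason. Among the settings run, a 1.5-fold limit alone changed the number of called members by over 1.5 times, which leaves fewer genes by construction: 11 higher instead of 25 and 5 lower instead of 8. With a posterior limit of 0.01, log2 ratios centred on the median gene, at least 200 reads, the removal of genes with a copy or an overlap, or a correction for GC content and length, the numbers were 18 to 25 higher and 6 to 10 lower. The last of these was added after seeing the data. With centring, which lowers each log2 ratio by 0.05, AT5G43410, ERF3, RAP2.3 and CRF2 turned slightly negative without being called, and ERF4 and RRTF1 became called lower. The median of the primordium genes went from -0.05 to 0.12 with 5 reads added to each pool, so its sign has no weight. The medians of stress, hypoxia and cytokinin-response members stayed above 0 in all settings run, the lowest being 0.20, 0.38 and 0.23. Depth limits PUCHI, DRN, DRNL, LEP, ERF14, ERF1, ORA59, CBF1 and DDF1, each with 65 reads or fewer.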

Other observations

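Beyond the 51 genes, 95 loci carry an AP2/ERF domain in the RefSeq annotation, and 88 had reads in both pools. Of these, 18 were called higher in DEX and 28 lower, with a median log2 ratio of -0.04, beside 36.4% and 20.8% of all genes. The genes named next were chosen after their values were seen. SHN1 and SHN3, activators of wax and cutin synthesis, were at -0.82 ± 0.03 and -0.75 ± 0.06. AT5G07580 and AT5G61590 (also DEWAX) were called lower, at -0.83 ± 0.07 and -0.61 ± 0.03. ERF110 was called lower at -0.19 ± 0.06, and AT2G33710 was called higher at 0.69 ± 0.28. AIL6, which supports floral organ growth, was at -0.60 ± 0.07, while its relative ANT was at 0.53 ± 0.02. AT1G75490 had 131 reads in DEX and 489 in mock, at -1.67 ± 0.14, and ranked 12 from the bottom among genes with 200 reads or more. RAV2 was at 1.02 ± 0.13, DREB2C, a heat-responsive factor, at 0.64 ± 0.07 and AP2 at 0.40 ± 0.03.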
